A study of Mastomys natalensis with 4 samples.

Results

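The genes described here code for the machinery that moves membrane between compartments of the cell and fuses secretory vesicles with their target. They were measured in stomach mucosa of the rodent Mastomys natalensis, in which acid suppression leads to tumours of enterochromaffin-like (ECL) cells, the histamine-releasing endocrine cells of the stomach. Members were taken by symbol: probe sets of the mouse U74 array whose single gene symbol began with Rab, Arf, Stx, Snap, Syt or Sec and a digit, or with Stxbp, Vamp or Cplx, or was Nsf, Napa, Napb or Napg. The rule found 138 of the 12422 probe sets other than controls, for 104 genes, and used no measured value. Total RNA came from 2 samples after 8 weeks of the histamine H2 receptor blocker loxtidine, at a stage labelled hyperplasia of ECL cells, and from 2 samples after 16 weeks, at a stage labelled neoplasia. Both groups received the drug, and untreated mucosa was not analysed here. Treatment time and lesion stage moved together, so they cannot be told apart. Strain, sex and age are not in the labels used here, and neither is whether a sample was 1 animal or a pool, so p-values reflect no more than the spread between these samples, and that may be technical.

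Vesicle traffic runs in steps that different protein families serve. Proteins enter the endoplasmic reticulum (ER) through the Sec61 channel and leave it in vesicles coated by the COPII complex, while Arf GTPases recruit coats at the Golgi and Rab GTPases mark each compartment and recruit tethers and motors. Fusion is driven by SNARE proteins, in which a vesicle SNARE of the VAMP family zips up with syntaxin and SNAP proteins on the target membrane. Sec1/Munc18 proteins, synaptotagmins and complexins control that step, and NSF with its attachment proteins takes the used complexes apart. In the acid-secreting stomach the same machinery serves granule release from endocrine and chief cells, mucus release, and the delivery of the proton pump to the parietal cell's surface. These samples are whole mucosa, so fewer cells of a type and less RNA per cell cannot be told apart.

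Values below an intensity of 12.15, the floor, were set to it before log2 was taken, and a probe set was tested if it exceeded the floor in 2 samples or more. Of the 138 members 95 were tested, for 77 genes, or 68.8% against 63.5% of all probe sets. Of the other 43 members, 34 lay above the floor on no array and 9 on 1 array, at 25.8 at most. The 27 genes without a tested probe set included Snap23, Stx1a, Napa, Rab3b, Rab3d, Vamp1, Vamp3 and Sec63. The probes are of mouse sequence, and a signal under the floor gives only a bound. Among these 27 were also 3 that the symbol rule took in without their being trafficking proteins by name: Sec1, which in mouse is a fucosyltransferase, and the opposite-strand transcripts Rab10os and Rab26os. The median intensity of the 8-week arrays was 15.4 and 17.3, and that of the 16-week arrays 19.2 and 18.9. The number of arrays limits the precision, and differences below are log2 differences, 16 weeks minus 8 weeks, ± the standard error (SE) of the limma fit, with n = 2 samples per group.

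No member passed limma's test (Benjamini-Hochberg adjusted p under 0.05 across the 7883 probe sets tested), which 0% of probe sets passed; the smallest adjusted p was 0.301, and 637 probe sets were higher and 463 lower at an unadjusted p under 0.05. At an unadjusted p under 0.05, 4 of the 95 members were higher at 16 weeks (4.21%, against 8.08% of all tested probe sets) and 7 were lower (7.37%, against 5.87%). The smallest p was that of syntaxin 3 (Stx3), and the smallest among the higher members that of Rab31. Each was above the floor in 1 group only and entered the test through it, and the other group, set to the floor, has no spread there, so the p and its stability are no support for either. The groups did not overlap for 23 members that were higher (24.2%, against 28.7% of all) and for 19 that were lower (20%, against 20.6%). Rab31, Snap47, Syt7 and Stx6 among the higher and Stx3 among the lower were tested through 1 group alone, so the filter fixed their direction. Of the 70 members above the floor on all arrays 14 were higher and 15 lower without overlap. The median difference of the members was 0.02, with 51 higher and 44 lower, and that of all tested probe sets was 0.09. The shares with separate groups lay near those of the whole array, and the share that was higher by p lay below it. A difference of 2-fold or more was read for 1 member in the upward and 4 in the downward direction, 5.26% of members against 7.29% of all tested probe sets. Leaving out 8-week sample 1 turned the members' median to -0.07, where that of all tested probe sets was -0.009. Without 8-week sample 2 the members' median was 0.14 and that of all 0.17.

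The scale of the arrays set the balance of directions. With the arrays on a common median 35 of 93 tested members were higher (37.6%, against 41.6% of all tested probe sets). On the deposited scale 53.7% of members and 56.3% of all were higher. The members' median on the common median was -0.19, where that of all probe sets was -0.11. With the arrays aligned on 14 bacterial hybridisation controls 76 of 95 were higher (80%, against 80.9% of all), and the medians were 0.43 and 0.46. Relative to all probe sets the members' median was -0.06 on the deposited scale, -0.08 on the common median and -0.03 on the controls. After quantile normalization it was 0.04, so its sign depended on the scaling. Directions given below are on the deposited scale. Dim probe sets tended higher at 16 weeks and bright ones lower, among members as elsewhere: the median was 0.25 for the 27 members in the dimmest of 3 equal classes of tested probe sets (0.20 for all), 0.12 for the 32 in the middle class (0.14) and -0.07 for the 36 in the brightest (-0.08).

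**Figure D1:**
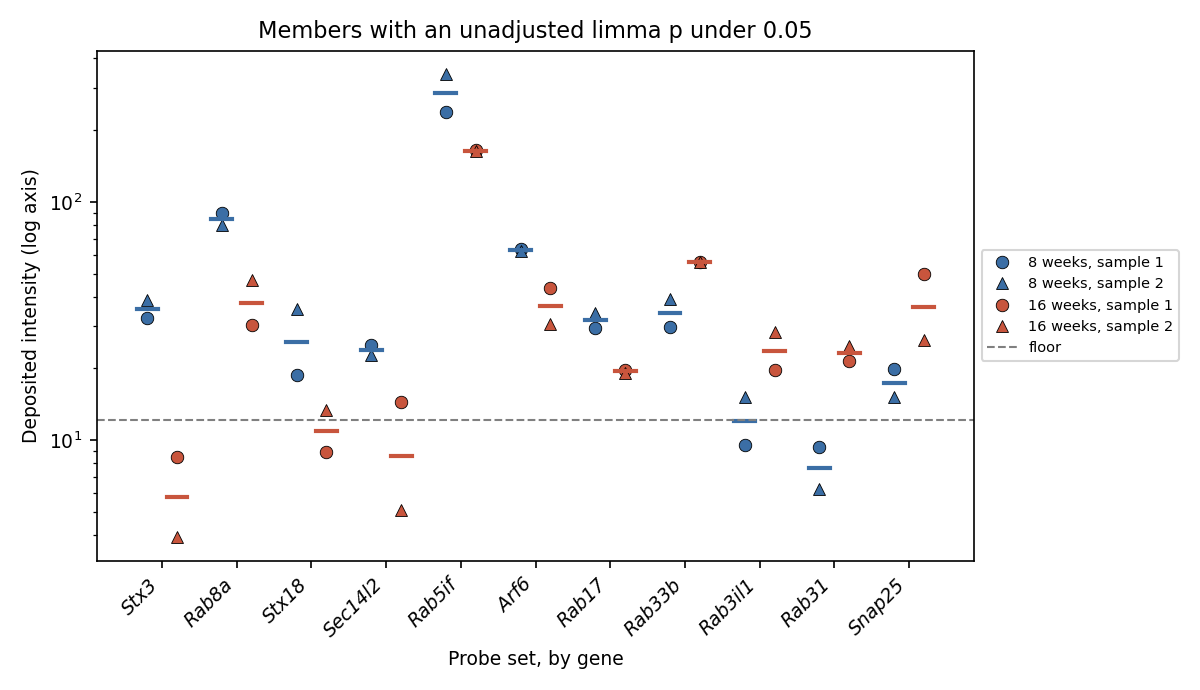
Deposited intensity (log axis) of the 11 member probe sets with an unadjusted limma p under 0.05, in each of the 4 samples; bars are the geometric mean of a group and the dashed line is the floor. The 7 on the left were lower and the 4 on the right higher at 16 weeks, and both 16-week samples lie on the same side of both 8-week samples in each of them.

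Syntaxins sit on target membranes, and their members went both ways. Of 12 probe sets for 10 genes 9 were tested, 5 higher and 4 lower, with a median of 0.00036 that was -0.22 on the common median and 0.43 on the controls. Stx3, the syntaxin of the apical surface in epithelia, gave 32.5 and 38.7 at 8 weeks, and 8.5 and 3.9 at 16 weeks. Both 16-week samples were under the floor, so the transcript's signal was at least 2.92-fold lower, with a difference of -1.55 ± 0.24 and a limma adjusted p of 0.301. This probe set carries a suffix for probes shared with related sequences. Its 2 sister probe sets, at 11.1, 3.1, 5.4 and 6.9 and at 2.0, 14, 6.3 and 4.4, were not tested, and gave no second reading.

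The next syntaxin by p was Stx18, which serves traffic back to the ER. It read 18.8 and 35.5 against 8.9 and 13.3 (-1.02 ± 0.37; limma adjusted p = 0.349), with 1 of the 16-week samples under the floor. Stx12, a syntaxin of endosomes, was instead higher at 16 weeks: 184 and 166 against 273 and 250 (0.58 ± 0.24; limma adjusted p = 0.364). The other syntaxins that act at endosomes did not share a direction, and are given here after their values were seen. Stx7 had 23.3 and 29.9 against 38.3 and 40.3 (0.57 ± 0.26), Stx6, which also acts at the trans-Golgi network, 12.1 and 4.1 against 21.6 and 14.9, and Stx8 25.2 and 49.2 against 26.9 and 24.5 (-0.46 ± 0.38), with overlapping groups. With Stx6 under the floor in both 8-week samples its difference is at least 1.48-fold. Stx6 entered the test through the 16-week samples alone, so it could only be read as higher. Stx4a, the syntaxin of basolateral membranes, read 120 and 98.9 against 114 and 59.6 (-0.40 ± 0.38), with overlapping groups. Stx1a, the syntaxin of neurons and endocrine cells, stayed under the floor in all samples, at 4.2, 7.0, 9.8 and 11.4.

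SNAP proteins supply the remaining strands of the SNARE bundle on the target membrane. Snap25, the form of neurons and endocrine cells, had values of 19.9 and 15.1 at 8 weeks, and of 49.6 and 26.2 at 16 weeks, a 2.08-fold difference (1.06 ± 0.39; limma adjusted p = 0.349). Both later samples were above both earlier ones, but the 16-week samples also stood apart from each other. Snap47, a widely expressed relative, read 10 and 8.8 against 17.0 and 20.8, at least 1.55-fold higher (0.63 ± 0.25; limma adjusted p = 0.357). Both its 8-week samples were under the floor, so it entered the test through the 16-week samples alone. Set to the floor, the 8-week group has no spread, and the SE and p are no support for Snap47. Snap23, the general form outside the nervous system, read 2.9, 4.1, 4.9 and 3.7, and Snap91, which despite its symbol is a clathrin adaptor of nerve endings, 0.3, 2.7, 7.7 and 2.7. Neither was tested.

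Vesicle SNAREs overlapped between the groups. Of 12 VAMP probe sets 5 were tested, with differences between -0.08 and 0.50 and a median of 0.06 (-0.16 on the common median), and no tested one had separate groups. Vamp2, the vesicle SNARE of synaptic vesicles and many granules, read 83.2 and 82.8 against 75.8 and 88.7 (-0.02 ± 0.24). Vamp8, which serves granule release in exocrine glands and fusion in the endosomal pathway, read 414 and 389 against 324 and 443 (-0.08 ± 0.27), while its other probe set had 96.2 and 79.4 against 88.1 and 101 (0.11 ± 0.25). Vamp7, of late endosomes and apical delivery, read 4.5 and 18.2 against 7.8 and 36.2, so that the second sample of each group read higher than the first. The second Vamp7 probe set, at 1.2 to 4.1, and one of those of Vamp2, at 1.4, 3.2, 10.1 and 6.8, were not tested.

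**Figure D2:**
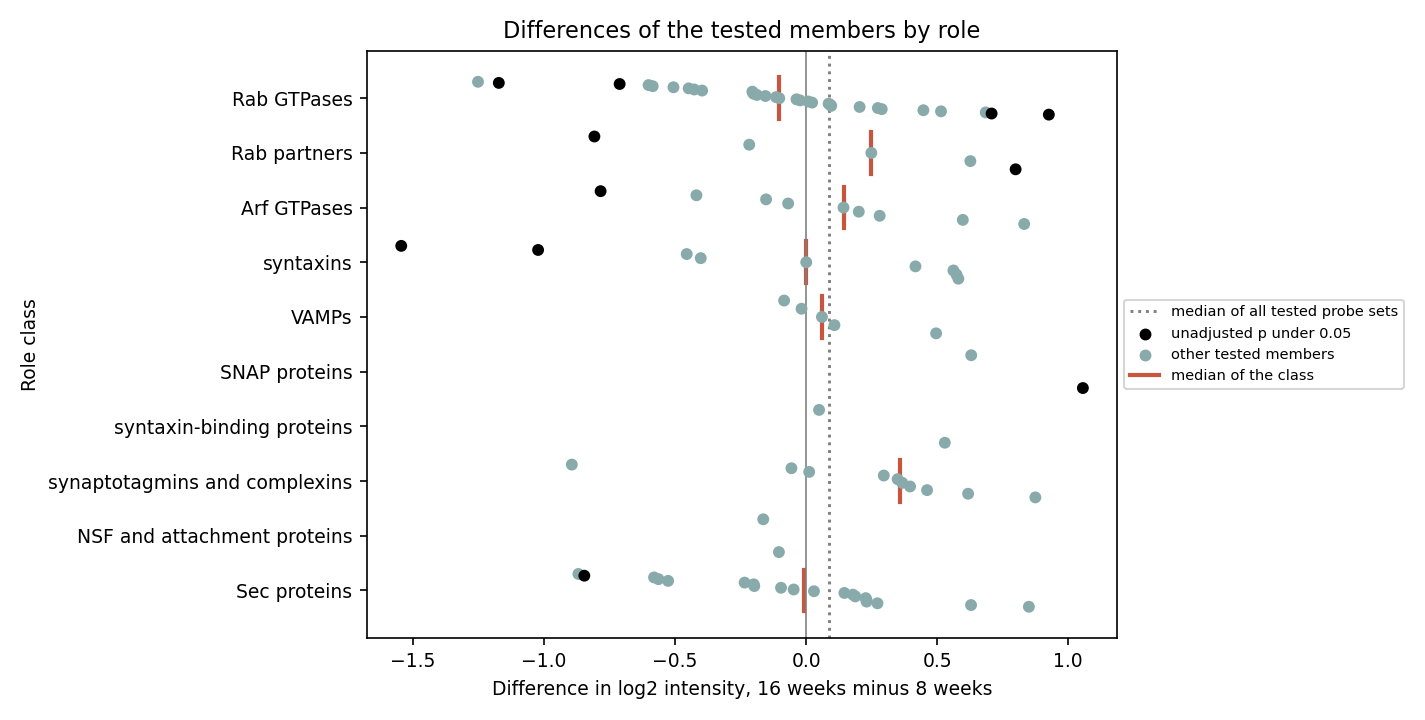
Difference in log2 intensity (16 weeks minus 8 weeks) of each of the 95 tested members, in rows by role; black points had an unadjusted p under 0.05, red bars are the class medians where over 2 members were tested, and the dotted line is the median of all tested probe sets (0.09). Class medians run from -0.10 for Rab GTPases to 0.36 for synaptotagmins and complexins.

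Synaptotagmins and complexins were read higher more often than lower. Of the 10 tested probe sets of synaptotagmins, the calcium sensors of release, and of complexins, which clamp the SNARE bundle, 8 were higher, with a median of 0.36 (0.16 on the common median, 0.67 on the controls). Over all tested probe sets 56.3% were higher, and 1744 of the 2628 in the dimmest class, where this class's median intensity of 18.5 falls. In 4 of the 10 the groups did not overlap, beside 28.7% higher without overlap on the array, and none had an unadjusted p under 0.05. Among these 4 was Syt7, named after its value was seen, at 5.0 and 3.4 against 12.9 and 21.7. It entered the test through the 16-week samples alone, so it could only be read as higher. The class median fell to 0.14 without 8-week sample 1 and to 0.17 without 16-week sample 2, and was 0.0058 with no filter on low values. Syt2 read 25.9 and 32.6 against 44.9 and 44.3 (0.62 ± 0.25; limma adjusted p = 0.364), and on its second probe set 21.0 and 8.9 against 33.5 and 13.2 (0.40 ± 0.54). Syt1, the sensor of synaptic vesicles, read 11 and 16.9 against 17 and 19.6 (0.35 ± 0.28). Syt10 gave 12.5 and 6.0 against 15.4 and 16.4 (0.37 ± 0.23).

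Other members of this class had 1 sample apart from the rest. The complexin Cplx2 stood at 12.7 in 8-week sample 1, while the remaining samples had 42.5, 40.7 and 44.6 (0.87 ± 0.60). Syt8, chosen after its value was seen, peaked at 53.9 in 8-week sample 2, with 7.6, 10.9 and 15.6 elsewhere. Cplx1 read 25.2 and 27.0 against 22.4 and 28.1 (-0.06 ± 0.25).

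Of the Sec1/Munc18 family, which hold syntaxins ready, Stxbp2, the form of epithelia and blood cells, read 93.9 and 107 against 136 and 79.1 (0.05 ± 0.34), and a further probe set gave 43.4 and 41.5 against 57.1 and 65.7 (0.53 ± 0.24). Stxbp3 was not tested. Nsf, the ATPase that recycles SNAREs, read 47.7 and 30.3 against 30.9 and 40.5 (-0.10 ± 0.33). Its attachment protein Napb gave -0.16 ± 0.31, from 13.4 and 19 against 11.1 and 16.7, and Napa read 3.3 to 4.3 on all arrays. A second Napb probe set, at 6.4 to 12.2, was not tested.

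**Figure D3:**
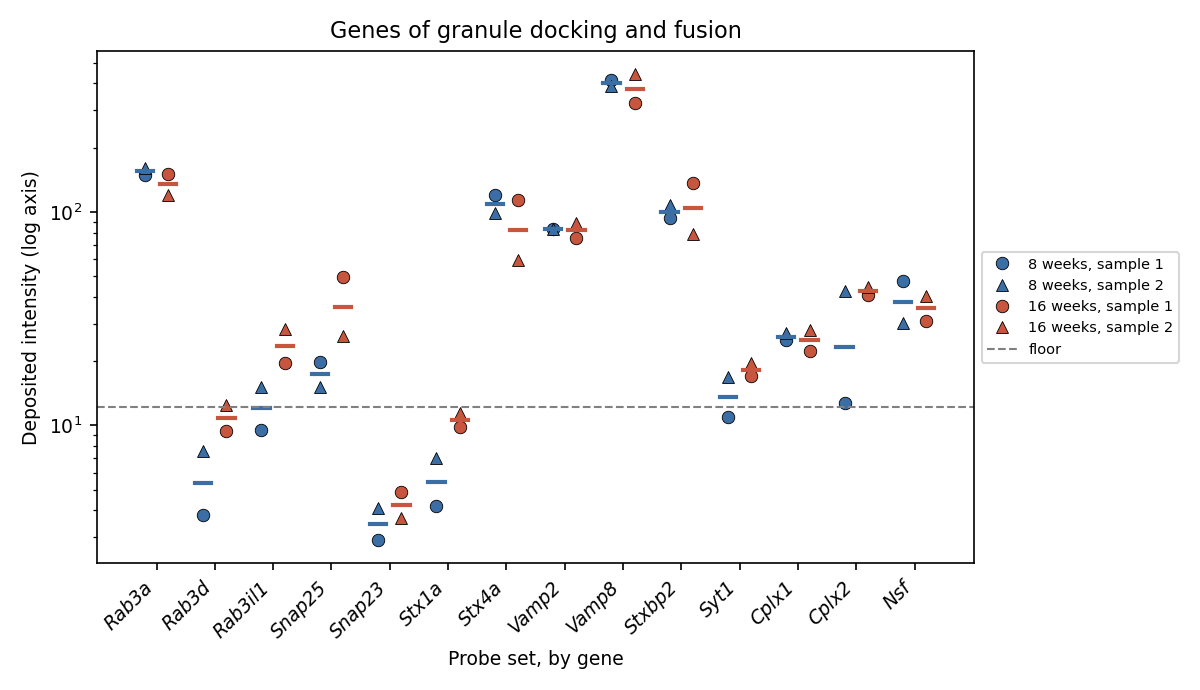
Deposited intensity (log axis) in each sample of 14 genes of granule docking and fusion, by the probe set with the highest mean; bars are the geometric mean of a group and the dashed line is the floor. Levels of different genes cannot be compared, since each probe set has a response of its own. Snap25, Rab3il1 and Syt1 have separate groups, though those of Syt1 barely part, at 16.9 in 8-week sample 2 and 17 in 16-week sample 1. Vamp2, Vamp8, Rab3a, Stxbp2 and Nsf overlap, and Rab3d, Snap23 and Stx1a lie at or near the floor or under it.

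Rab GTPases were the largest class, with 44 probe sets for 33 genes, of which 31 were tested. Of these 13 were higher and 18 lower, the median was -0.10 (0.32 on the controls), and the groups were separate for 4 higher and 9 lower probe sets (28.7% higher and 20.6% lower over all tested probe sets). The lowest p of a lower member was that of Rab8a, which steers vesicles from the trans-Golgi network and recycling endosomes to the surface. Its values of 89.9 and 80.2 at 8 weeks compare with 30.3 and 46.8 at 16 weeks, 2.25-fold lower (-1.17 ± 0.31; limma adjusted p = 0.309). With the arrays on the hybridisation controls the difference was -0.75. Rab17, a Rab of epithelial cells that serves transcytosis, read 29.6 and 34.1 against 19.7 and 19.1 (-0.71 ± 0.24; limma adjusted p = 0.338).

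Several Rabs of apical recycling were in the set chosen by function. Rab11a, which marks recycling endosomes and the tubulovesicles that hold the proton pump in parietal cells, read 803 and 749 against 535 and 499, 1.5-fold lower (-0.59 ± 0.23; unadjusted p = 0.0533, limma adjusted p = 0.364). The samples of each group were close to each other and the groups did not overlap. After quantile normalization its difference was -0.30, and on the hybridisation controls -0.16. Rab25, a close relative of Rab11a in epithelia, read 119 and 127 against 125 and 117 (-0.02 ± 0.23). Rab11b, added here after its value was seen, stood at 81.5 in 8-week sample 1 and at 25.1, 23.4 and 15.4 elsewhere, a difference of -1.25 ± 0.61.

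Rabs of regulated secretion were read on few probe sets. Rab3a, which sits on synaptic vesicles and endocrine granules, read 149 and 161 against 151 and 120 (-0.20 ± 0.25), with overlapping groups. Rab3d, the form of exocrine zymogen granules, read 3.8, 7.6, 9.4 and 12.5, and was not tested. Of the Rab3 partners, the exchange factor Rab3il1 read 9.5 and 15.2 against 19.7 and 28.4 (0.80 ± 0.30; limma adjusted p = 0.352), with 8-week sample 1 under the floor. Rab3ip, an exchange factor for Rab8, gave 0.63 ± 0.30 on one probe set, at 37.8 and 47.1 against 77.9 and 54.5, and -0.22 ± 0.38 on another, at 40.4 and 68.8 against 56.2 and 36.6. Rab5if, named as a Rab5-interacting factor, read 239 and 345 against 165 and 163 (-0.81 ± 0.28; limma adjusted p = 0.343).

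Rabs of the ER, the Golgi and endosomes included some with overlapping and some with separate groups. Rab1a, which acts between the ER and the Golgi, read 101 and 121 against 94.8 and 146 (0.09 ± 0.31), and Rab5a, of early endosomes, 126 and 147 against 150 and 117 (-0.04 ± 0.26). Rab7, of late endosomes, read 94.1 and 117 against 60.1 and 79.4 on one probe set (-0.60 ± 0.28) and 76.3 and 105 against 101 and 60.2 on the other (-0.21 ± 0.36). Rab33b, a Golgi Rab, read 29.9 and 39.1 against 55.9 and 55.8 (0.71 ± 0.26; limma adjusted p = 0.349), and 67.7 and 32.4 against 73.9 and 55.2 on its other (0.45 ± 0.43). Rab31, which acts between the trans-Golgi network and endosomes, read 9.3 and 6.2 against 21.5 and 24.8, at least 1.90-fold higher (0.93 ± 0.24; limma adjusted p = 0.309). Its second probe set was lower instead, with 15.5 and 21.6 against 14.8 and 6.7 (-0.45 ± 0.29), so the direction for Rab31 depends on the probe set. The remaining tested Rab probe sets lay between those of Rab11b (-1.25) and Rab31 (0.93). Among them, picked after their values were seen, were Rab9, of traffic from late endosomes to the Golgi, at 16.2 and 14.1 against 28 and 21.1 (0.69 ± 0.27), and Rab6a, of traffic within and from the Golgi, at 147 and 179 against 256 and 210 (0.51 ± 0.26), both without overlap. Further probe sets of Rab1a (1.4 to 9.5), Rab3a (1.8 to 3.6) and Rab11a (2.8 to 23.2, above the floor in 8-week sample 2 alone) were not tested.

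Arf GTPases were all bright enough to test, with 9 probe sets for 6 genes, 5 higher and 4 lower, and a median of 0.14 (-0.08 on the common median, 0.57 on the controls). Arf1, which recruits the COPI coat at the Golgi, read 2439 and 2424 against 1942 and 1704 (-0.42 ± 0.24; limma adjusted p = 0.462), and turned positive after quantile normalization (0.09) and on the hybridisation controls (0.01). Arf6, which acts at the plasma membrane in endocytosis and recycling, read 63.6 and 62.3 against 43.5 and 30.7 on one probe set (-0.78 ± 0.28; limma adjusted p = 0.347) and 36.7 and 33.5 against 42.3 and 38.4 on the other (0.20 ± 0.24). In each Arf6 probe set the groups were separate, in opposite directions. Arf3, a Golgi Arf close to Arf1, had 3 probe sets, at 149 and 164 against 168 and 178 (0.14 ± 0.23), 49.1 and 57.7 against 72.6 and 89.4 (0.60 ± 0.26), and 47.7 and 42.1 against 45.3 and 40.3 (-0.07 ± 0.24). Arf2, again picked after its value was seen, read 10.9 in 8-week sample 1 and 30.4, 32.8 and 35.7 in turn in 8-week sample 2 and the 16-week samples (0.83 ± 0.48).

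Sec proteins, whose symbols come from yeast secretion mutants and cover unrelated functions, were split evenly: of 20 tested probe sets 10 were higher and 10 lower, with a median of -0.01 (-0.19 on the common median, 0.35 on the controls). Leaving out 8-week sample 1 put this median at -0.34, and leaving out 8-week sample 2 put it at 0.19. In the COPII coat Sec13, of the outer cage, read 107 and 98.4 against 77.0 and 61.1 (-0.58 ± 0.25; limma adjusted p = 0.385). Sec23a, of the inner coat, read 41.5 and 23.5 against 16.7 and 17.5 (-0.87 ± 0.35; limma adjusted p = 0.363). Its second probe set reached 28.4 in 8-week sample 2 and 4.0, 13 and 11.1 elsewhere (-0.56 ± 0.45). Sec22b, a SNARE of the ER and Golgi, gave 0.19 ± 0.28, from 31.4 and 42.8 against 46.0 and 37.9, and on the second probe set -0.10 ± 0.34, from 30.5 and 52.8 against 37.6 and 37.5.

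The channel through which proteins enter the ER was read on several probe sets. Sec61a1, its pore subunit, read 380 and 376 against 245 and 281 on one probe set (-0.53 ± 0.24; limma adjusted p = 0.389). On the other it read 190 and 422 against 370 and 297 (0.23 ± 0.44), where the 8-week samples stood further apart than the groups. Sec61b, a small subunit, read 101 and 114 against 135 and 126 (0.27 ± 0.24), and the pore paralogue Sec61a2 15.7 and 7.1 against 18.9 and 32.8 (0.85 ± 0.36; limma adjusted p = 0.371). Sec14l2, a lipid-binding protein, read 25.1 and 22.7 against 14.5 and 5.1 (-0.85 ± 0.25; limma adjusted p = 0.325) on a probe set of reduced design and 15.5 and 47.2 against 38 and 26.5 on another (0.23 ± 0.58).

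Agreement between probe sets of a gene was limited. Of 17 member genes with several tested probe sets, 6 had the same sign on all of them (35.3%), against 499 of 982 such genes over the whole array (50.8%). The 6 were Rab33b, Rab6a, Rab7, Sec23a, Stxbp2 and Syt2. The widest gaps between the probe sets of a gene were 1.37 for Rab31, 1.08 for Sec14l2 and 0.99 for Arf6. Of the 4 such genes with an unadjusted p under 0.05 on a probe set, Rab31, Sec14l2 and Arf6 had the other sign on their second, and Rab33b the same sign. Of the 95 tested members 13 carry a suffix that marks shared or reduced probes, among them the probe sets of Stx3, Rab31 and Sec14l2 with a small p.

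**Figure D4:**
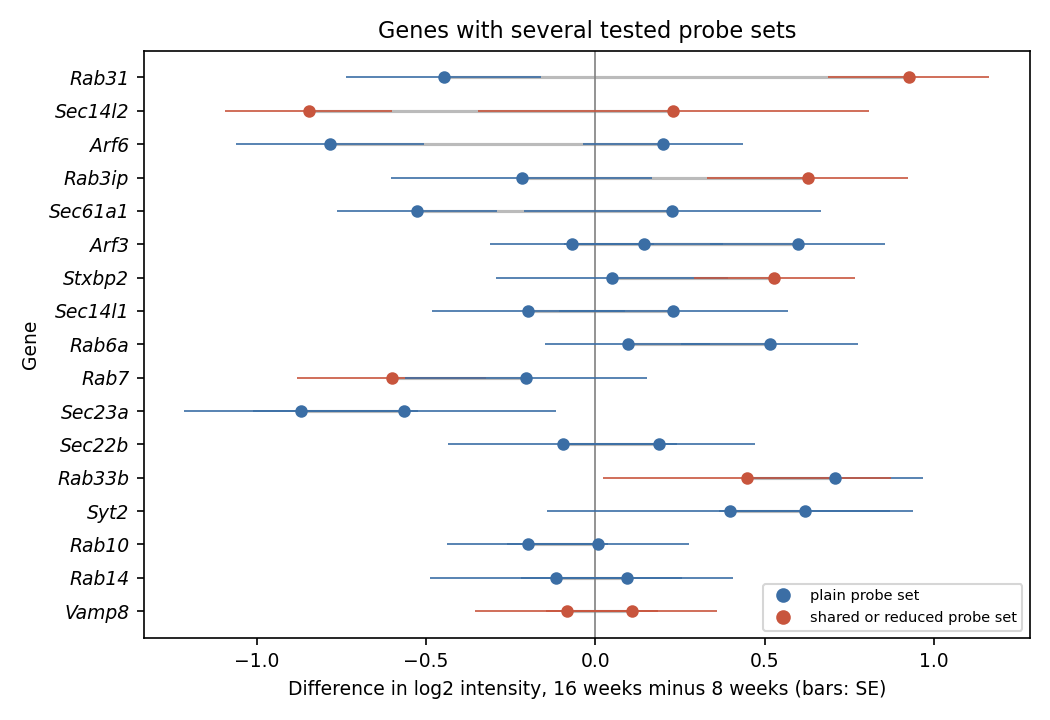
Difference in log2 intensity (16 weeks minus 8 weeks) for every tested probe set of the 17 member genes with several; bars are the SE, red marks shared or reduced probe sets, and genes are sorted by the gap between their probe sets. The probe sets of 11 genes lie on both sides of 0.

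The spread inside a group was of the size of the differences between groups. The median absolute log2 difference of the 95 members was 0.31 between the 8-week samples, 0.32 between the 16-week samples and 0.30 between the group means. For 34 members (35.8%, against 34.2% of all tested probe sets) the difference between groups exceeded that between samples in both groups. 8-week sample 2 was above sample 1 for 60 of the 95 members (63.2%, against 61.4% of all). The single lowest value of a member lay in 8-week sample 1 for 27 (28.4%, against 34.1% of all) and in 16-week sample 2 for 28 (29.5%, against 25.6%). The single highest lay in 8-week sample 2 for 29 (30.5%, against 27.1% of all) and in 16-week sample 2 for 29 (30.5%, against 27.5%).

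Genes that work with these families were taken from lists by function, each by its brightest tested probe set. At an unadjusted p under 0.05, 7.54% of all 5864 tested genes were higher and 5.78% lower, and groups were separate for 27.5% higher and 21.1% lower. No listed gene passed with adjustment over all probe sets. The list of secretory granule and vesicle membrane genes had 11 of 17 tested genes higher and a median of 0.30 (0.08 on the common median), with 2 higher and 0 lower at an unadjusted p under 0.05. Resp18, a protein of endocrine secretory cells, read 119 and 93.8 against 186 and 241 (1.0 ± 0.28; limma adjusted p = 0.320), the granule protein Scg2 18.4 and 28.4 against 46.3 and 38.6 (0.89 ± 0.31), and Zwint, a kinetochore protein that binds SNAP25, 55.4 and 129 against 177 and 199 (1.15 ± 0.45). The list did not share a direction, and 6 of its tested genes were lower. Among these, added after their values were seen, Uchl1 read 66.8 and 64.4 against 19.7 and 52.1 (-1.03 ± 0.50), without overlap. Chgb (-0.46) and Cpe (-0.35) had overlapping groups.

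Coat and Golgi genes lay more on the lower side on the deposited scale. So did the brightest class of all tested probe sets, with 1485 of 2628 lower and a median of -0.08. Of 40 tested genes of Golgi coats, Arf regulators and ER to Golgi traffic 2 were higher and 4 lower at an unadjusted p under 0.05, the groups were separate for 2 higher (5%) and 13 lower (32.5%), and the median was -0.07. The COPI subunits Cope and Copg1 read 88.1 and 50.5 against 28.2 and 16.5 (-1.63 ± 0.42; limma adjusted p = 0.309) and 149 and 143 against 99.8 and 75.1 (-0.75 ± 0.26), and Trappc3, of a tether of ER-derived vesicles, 25.5 and 26.0 against 14.7 and 9.9. The COPI subunits did not share a direction: Copa, added after its value was seen, read 99 and 78.1 against 172 and 133 (0.78 ± 0.28), and Copb1 (0.32), Copb2 (0.11), Copz1 (0.07), Copz2 (-0.37) and Arcn1 (0.01) had overlapping groups. The other gene higher by p was Lman2, a cargo receptor of ER to Golgi traffic, at 49.2 and 71.3 against 96 and 121 (0.86 ± 0.30). Of 41 tested clathrin and endosome genes 2 were higher and 4 lower at an unadjusted p under 0.05. By sign 19 were higher and 22 lower, with a median of -0.05. The clathrin light chain Clta read 224 and 188 against 127 and 106 (-0.83 ± 0.26; limma adjusted p = 0.326), whereas the retromer subunit Vps26a read 15.7 and 4.5 against 28.4 and 28.1 (1.03 ± 0.26). The retromer subunits Vps35, at 129 and 147 against 88.8 and 90.2 (-0.62 ± 0.24), and Vps29 (-0.66 ± 0.34), added after their values were seen, were lower, so retromer had no common direction. Partners of Rab proteins outside the symbol rule (10 tested, median 0.07, -0.09 on the common median) were 7 higher and 3 lower by sign. None had an unadjusted p under 0.05. Genes of ER translocation (17 tested, median -0.04) were 7 higher and 10 lower by sign, with 0 higher and 1 lower at an unadjusted p under 0.05. With the arrays on the hybridisation controls all 5 of these lists had a positive median, from 0.30 to 0.69.

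Markers of the cells that use this machinery were set beside it by their summed intensity in each sample. The 8 parietal cell genes summed to 7417 and 9629 at 8 weeks and to 7757 and 6935 at 16 weeks, and none was under the floor throughout. Most of the parietal sum was the proton pump subunit Atp4a, at 4442 and 5304 against 4850 and 4034, with overlapping groups. The other pump subunit, Atp4b, read 1091 and 1701 against 915 and 634 (-0.84 ± 0.35), without overlap. Of the 8 genes 4 were higher and 4 lower. The 6 mucous cell genes summed to 5595 and 5755 against 4914 and 4685. Most of that sum was Tff1, at 4875 and 4910 against 4220 and 4094, and of the 6 genes 4 were lower and 2, Krt20 (1.22 ± 0.32) and Ctse (0.71 ± 0.32), higher. The 18 ECL and endocrine cell genes summed to 1029 and 917 against 1053 and 1103. Part of that sum was Reg1, at 266 and 74.9 against 82.2 and 188, far apart inside each group. The defining enzyme of ECL cells, Hdc, read 7.8, 5.0, 7.2 and 4.9, under the floor, so the labelled cell type was not marked by it here. Of the 15 tested genes on this list 9 were higher and 6 lower. Chromogranin A (Chga) read 141 and 242 against 299 and 231, and chromogranin B (Chgb) 101 and 61.7 against 51.5 and 64.2. The 21 enteric neuron and glia genes summed to 789 and 830 against 868 and 741. A large part of that sum was Tubb3, at 299 and 205 against 198 and 120, and 5 of the genes lay under the floor in all samples.

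Other cell types varied as well. The 11 pancreatic acinar genes summed to 4350 and 1312 against 2588 and 7375, far apart inside each group, and the 11 smooth muscle genes to 3704 and 3204 against 1931 and 1944. A large part of the smooth muscle sum was Actg2, at 1786 and 1437 against 849 and 866. Of 10 tested smooth muscle genes 2 were higher and 8 lower, all 8 without overlap (80%, against 21.1% of all genes). At an unadjusted p under 0.05, 5 were lower (50%, against 5.78%). The 16 lymphocyte genes summed to 329 and 357 against 466 and 501. Of 10 tested, 9 were higher and 1 lower, with 4 higher at an unadjusted p under 0.05 (40%, against 7.54% of all genes). The 17 mast cell and macrophage genes summed to 546 and 591 against 571 and 623, and the 2 chief cell genes on the array to 1818 and 1795 against 1370 and 1677. Nearly all of the chief cell sum was Chia1, at 1792 and 1794 against 1368 and 1591. The other, Rnase1, also on the acinar list, read 25.5 and 1.6 against 2.1 and 85.9. The part of these cell types in the members' differences was not tested.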

How the data were processed

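Total RNA of gastric mucosa from 4 Mastomys natalensis samples was hybridised to Affymetrix arrays of the mouse U74 design, as the labels state. The authors deposited a linear intensity for each of 12488 probe sets per sample; its computation and scaling are not given in the sources used here, and the deposited scale was kept. Genes were named through the platform annotation (10833 probe sets with 1 symbol, 396 with several, 1193 unnamed here, of 12422 besides 66 controls). No genome or sequence table was used. Members and lists were chosen with earlier results of these data known.

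Values below 12.15 (the median over arrays of the 40th percentile) were set to it, and log2 values of the 7883 probe sets above it on at least 2 arrays were compared with limma 3.58.1 in R 4.3.3 (lmFit, eBayes, 2-sided, Benjamini-Hochberg over all of them, threshold 0.05). An exact permutation test of 2 against 2 samples cannot give a 2-sided p below 0.333. The fit was tested on simulated data. Values were given for members with an unadjusted p under 0.05, the 3 smallest p of each role class, and a set of genes chosen by function, with all their probe sets. The replicate numbers were taken as names of samples only. Across 14 alternatives scale, floor, filter, pseudocount, block, trend, samples and probe sets were varied.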

Additional observations from a re-analysis of the deposited data

How the results depend on the processing

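No member passed limma's adjusted test in any of the 14 alternatives, and every alternative but one called 0 probe sets in all; without a filter on low values limma called 22, none of them a member. Of the 11 members with an unadjusted p under 0.05, none changed direction in the alternatives that tested it. They were picked by that p from these same samples, so the kept direction is no support for them. Of the 54 named probe sets that were tested, 26 changed sign under an alternative, in 56 of 729 values; the cause was not tested. With 2 samples a group no outlying sample can be told, and signal near the floor limits the dim members most. Same-numbered samples showed no shared deviation (r = -0.05 over 7883 probe sets), which cannot tell whether they were paired in the experiment. With the replicate block 0 probe sets were called and the members with an unadjusted p under 0.05 were 3 higher and 7 lower.

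With the arrays on a common median, members with an unadjusted p under 0.05 were 1 higher and 14 lower, those with separate groups 15 higher and 31 lower, and the members' median was -0.19. Medians were -0.080 for Arf GTPases, -0.33 for Rab GTPases, -0.19 for Sec proteins, -0.16 for VAMPs, -0.088 for Rab regulators and effectors, -0.30 for Golgi coats, -0.28 for clathrin and endosome genes, 0.078 for granule genes and -0.26 for ER translocation. Differences turned to -0.080 for an Arf3 probe set, -0.022 for one of Arf6, -0.14 for Rab1a, -0.035 for one of Sec22b, and -0.17 and -0.11 for one each of Stxbp2 and Vamp8. On the hybridisation controls the counts were 18 higher and 1 lower by p, 47 higher and 7 lower with separate groups, and the median was 0.43. Medians were 0.57 for Arf GTPases, 0.32 for Rab GTPases, 0.35 for Sec proteins, 0.43 for syntaxins, 0.49 for VAMPs, and 0.45, 0.30, 0.37, 0.69 and 0.39 for the 5 lists in the order above. Differences turned to 0.0070 for Arf1, 0.36 for an Arf3 probe set, 0.19 for Napb, 0.32 for Nsf, 0.40 for Rab25, 0.22 for Rab3a, 0.39 for Rab5a, 0.22 for one of Rab7, 0.21 for one of Rab3ip, 0.33 for one of Sec22b, 0.37 for Cplx1, 0.024 for Stx4a, 0.41 for Vamp2 and 0.34 for one of Vamp8. Quantile normalization gave medians of 0.069 for Sec proteins, 0.15 for Rab regulators and effectors and -0.16 for Golgi coats, and turned Arf1 to 0.086, Rab25 to 0.048, Rab5a to 0.045 and one Vamp8 probe set to 0.21.

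A lower floor gave medians of 0.089 for all members, 0.63 for Rab partners, 0.19 for VAMPs and 0.24 for Rab regulators and effectors, and the pseudocount 0.13 for the last. Without a filter 7 members were higher by p and 38 by separate groups, as more were tested. By sign 41.3% of members and 42.5% of all were higher there. With only probe sets above the floor on all arrays 14 members were higher with separate groups, and the medians were -0.069 for Arf GTPases, -0.22 for Rab partners and 0.24 for Rab regulators and effectors. Plain probe sets alone, an alternative chosen after seeing the data, gave counts within 1.5 times of those reported.

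Leaving out each sample in turn gave 2 to 5 members higher and 4 to 9 lower by p, and 31 to 43 higher and 25 to 39 lower with separate groups, where 2 samples face 1. The members' median ran from -0.070 to 0.14, that of Sec proteins from -0.34 to 0.19, VAMPs -0.13 to 0.14, synaptotagmins and complexins 0.14 to 0.43, Rab partners -0.018 to 0.52, Rab regulators and effectors 0.031 to 0.25, Golgi coats -0.24 to 0.038, clathrin and endosome genes -0.19 to 0.045, granule genes 0.060 to 0.46 and ER translocation -0.21 to 0.069. Differences that took both signs ran from -0.16 to 0.021 for an Arf3 probe set, -0.42 to 0.088 for Napb, -0.43 to 0.22 for Nsf, -0.22 to 0.40 for Rab1a, -0.073 to 0.026 for Rab25, -0.084 to 0.98 for one of Rab33b, -0.22 to 0.14 for Rab5a, -0.57 to 0.16 for one of Rab7, -0.60 to 0.17 for one of Rab3ip, -0.57 to 1.03 for one of Sec14l2, -0.49 to 0.30 and -0.036 to 0.41 for Sec22b, -1.18 to 0.049 for one of Sec23a, -0.35 to 0.80 for one of Sec61a1, -0.22 to 0.11 for Cplx1, -0.28 to 1.07 for one of Syt2, -0.34 to 0.44 for one of Stxbp2, -0.87 to 0.067 for Stx4a, -0.13 to 0.096 for Vamp2, -0.29 to 1.28 for Vamp7, and -0.31 to 0.14 and -0.030 to 0.25 for Vamp8. In these fits the lone sample was assumed to vary like the other group.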
